A study of Mus musculus with 9 samples.

Results

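Upp1 encodes uridine phosphorylase 1, the enzyme that splits uridine into uracil and ribose 1-phosphate. It was described here together with 9 other enzymes of nucleoside salvage and uridine supply: the phosphorylases Tymp and Pnp, the kinases Uck1, Uck2, Uckl1, Dck and Tk1, the deaminase Cda, and Umps. The 10 genes were taken by name from the 21434 genes present in both deposited tables. Upp1 was chosen on its measured values, as one of the largest increases with lipopolysaccharide (LPS) that was lower again with the inhibitor NCT503, so its own differences are given as a description and carry no test. The other genes were listed by their function.

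The cells were bone marrow-derived macrophages of C57BL/6 mice at postnatal week 8, grown for 6 days in medium with 10% fetal bovine serum and M-CSF, a macrophage growth factor, at 10 ng/ml. Control cells stayed in medium for 6 h, a second group received 500 ng/ml LPS for 6 h, and the third group received 500 ng/ml LPS together with 50 µM NCT503, an inhibitor of phosphoglycerate dehydrogenase (PHGDH), the first enzyme of serine synthesis from glucose. Each group had 3 RNA-seq libraries, and the labels do not say whether these came from separate cultures or animals, so the p-values measure only the spread between the libraries, which may be technical. No cells given NCT503 without LPS were analysed here, and the labels name no vehicle for the inhibitor.

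Cells obtain pyrimidine nucleotides along a de novo route, which ends in uridine monophosphate made by Umps, and along salvage routes that recycle nucleosides. In salvage, a nucleoside kinase adds a phosphate and keeps the nucleoside for nucleotide synthesis, whereas a phosphorylase cuts it into a base and a sugar phosphate that can enter sugar metabolism. Macrophages take up and release nucleosides, and LPS is a bacterial cell wall component that they sense through Toll-like receptor signalling.

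Promoter windows are shown for the 3 genes that were higher with LPS and lower again with NCT503 (Upp1, Pnp and Dck) and for Umps, which fell with LPS. Each runs from 250 bases before to 50 bases after a transcript start, 5′ to 3′ on the gene's strand, from RefSeq for build GRCm38.p6. All 10 genes matched an entry, with 14 windows in all. Capitals mark matches to the AP-1 motif TGANTCA, the cyclic AMP response element TGACGTCA (CRE) or CCAAT, searched on both strands. Upp1 has 3 RefSeq windows, and the transcript start of the one shown is the gene start given in the deposited tables.
Upp1, chr11:9117853-9118152, plus strand: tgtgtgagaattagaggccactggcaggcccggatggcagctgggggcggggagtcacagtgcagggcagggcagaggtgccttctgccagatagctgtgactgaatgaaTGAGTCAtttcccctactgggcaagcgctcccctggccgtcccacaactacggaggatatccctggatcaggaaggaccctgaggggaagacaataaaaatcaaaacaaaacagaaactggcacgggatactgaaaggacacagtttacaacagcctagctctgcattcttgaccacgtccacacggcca
Pnp, chr14:50944053-50944352, plus strand: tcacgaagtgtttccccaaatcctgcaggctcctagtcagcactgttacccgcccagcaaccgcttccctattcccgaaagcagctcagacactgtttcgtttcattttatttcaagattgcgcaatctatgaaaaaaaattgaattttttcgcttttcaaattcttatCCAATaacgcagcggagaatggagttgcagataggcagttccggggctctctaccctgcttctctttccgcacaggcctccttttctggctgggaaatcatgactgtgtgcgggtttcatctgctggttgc
Dck, chr5:88764763-88765062, plus strand: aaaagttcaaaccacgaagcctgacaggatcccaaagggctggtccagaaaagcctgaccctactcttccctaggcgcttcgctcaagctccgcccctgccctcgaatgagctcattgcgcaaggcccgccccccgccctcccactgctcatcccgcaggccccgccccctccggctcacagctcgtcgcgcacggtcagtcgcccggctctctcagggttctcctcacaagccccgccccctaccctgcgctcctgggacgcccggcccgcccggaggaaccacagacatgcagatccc
Umps, chr16:33966989-33967288, minus strand: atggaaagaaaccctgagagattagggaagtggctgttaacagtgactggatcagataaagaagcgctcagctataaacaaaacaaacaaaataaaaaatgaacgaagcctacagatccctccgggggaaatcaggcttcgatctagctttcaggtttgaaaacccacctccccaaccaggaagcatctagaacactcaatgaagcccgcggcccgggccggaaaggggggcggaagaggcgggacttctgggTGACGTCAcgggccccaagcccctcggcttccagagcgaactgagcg

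All 4 windows shown held the GC box GGGCGG, left in lower case, which was the only motif searched that matched in Dck. An AP-1 match lay at position -140 from the transcript start in the Upp1 window shown and in no window of the other 9 genes, and 7.81% of the 32851 RefSeq windows of this length held 1. The Upp1 window of the transcript start at 9118008 had an AP-1 match at position -45, and that of the start at 9118507 had none. The CRE match of Umps lay at position 3, and 1.79% of all windows held that motif. CCAAT was found at position -81 of Pnp, and also in the windows of Tymp and Uck2, against 37.4% of all windows. The GC box lay at position -206 of Upp1, -201 of Pnp and -22 of Umps and matched 6 times in Dck. It was in windows of 8 of the 10 genes, against 35.7% of all windows. The NF-κB consensus (4.51% of all windows), the interferon-stimulated response element (3.44%), the E-box CACGTG (7.15%) and the E2F motif TTTNGCGC (1.38%) had no match in the windows of the 10 genes. In the 4 windows shown the capitals mark 3 separate matches and Dck has none, and a match describes letters only.

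The 9 libraries held 20295862 to 23599685 reads over the shared genes, of which the top 100 genes took 28.5% to 33.1%. Values are normalized reads, that is whole reads divided by a size factor of the library. NCT503 library 2 stood farthest from its group: the median gene deviated from the mean of the other 2 libraries by 0.393 on the log2 scale, against 0.103 to 0.338 for the other 8 libraries. The summed level of 8 macrophage markers was 274268 to 346858 in control, 349949 to 384048 with LPS and 195894 to 246368 with NCT503, and none was at 0 in a whole group. Lyz2, with group means of 206169, 232725 and 107188, made up most of this sum. With NCT503 against LPS Lyz2, Mertk and Fcgr1 fell and Mrc1 rose (1.70). The values of Itgam (-0.89), Adgre1 (-0.36), Csf1r (0.07) and Cd68 (0.03) did not pass the test. For Itgam and Adgre1 every NCT503 library lay below every LPS library. A second entry of Itgam, also in the sum, had at most 2 reads in a library. Summed neutrophil granule genes were 3806 to 6256, 1870 to 3902 and 409 to 1073 in the same order of groups. Of these 8 genes 7 fell with NCT503 against LPS, where 15.5% of all genes fell. Summed stromal genes (collagens and other fibroblast genes) were 5542 to 25425, 16233 to 35137 and 16136 to 41341, a sum carried by Col1a1 and Col1a2, which did not pass the test. Of the 8 stromal genes 5 rose with LPS, where 20.8% of all genes rose. Pdgfrb (-2.60), Thy1 (-3.55) and Pdgfra (-1.84) fell with NCT503 against LPS. T and natural killer genes summed to 81.9 to 144, 86.4 to 164 and 34.3 to 73.4 in the same order. B cell genes summed to 81.2 to 92.9, 16.1 to 48.5 and 13.5 to 37.9. Mast cell genes summed to 265 to 341, 323 to 481 and 175 to 190. Pax5 alone among all the markers was at 0 in a whole group, the control. These levels moved with the treatments, their part in the results was not tested, and in bulk samples fewer cells of a type and less RNA per cell cannot be told apart.

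Upp1 (ENSMUSG00000020407, chr11:9118103-9136170, plus strand, mm10) was close to silent in control macrophages, with 15.7, 7.7 and 11.2 normalized reads. With LPS it reached 6980, 9617 and 11798 normalized reads. With LPS and NCT503 it was at 592, 498 and 394. The 3 groups did not overlap, and every NCT503 library lay between the control and the LPS libraries. In means, Upp1 was at 11.5 ± 4.02 (SD, n = 3) in control, 9465 ± 2413 with LPS and 495 ± 99.2 with NCT503, so that NCT503 left 5.23% of the LPS level, still 42.9 times the control mean.

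On the scale of log2(normalized reads + 1), the difference for Upp1 was 9.58 for LPS minus control, -4.24 for LPS with NCT503 minus LPS, and 5.34 for LPS with NCT503 minus control. It ranked 6th from the highest of 19608 genes with LPS and 26th from the lowest of 20016 genes with NCT503. Against control it ranked 91st from the highest of 19930 genes with both agents. These values chose the gene and support nothing further. The comparison of NCT503 with LPS uses the same LPS libraries as the comparison of LPS with control, so a high value in those 3 libraries enters both.

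**Figure D1:**
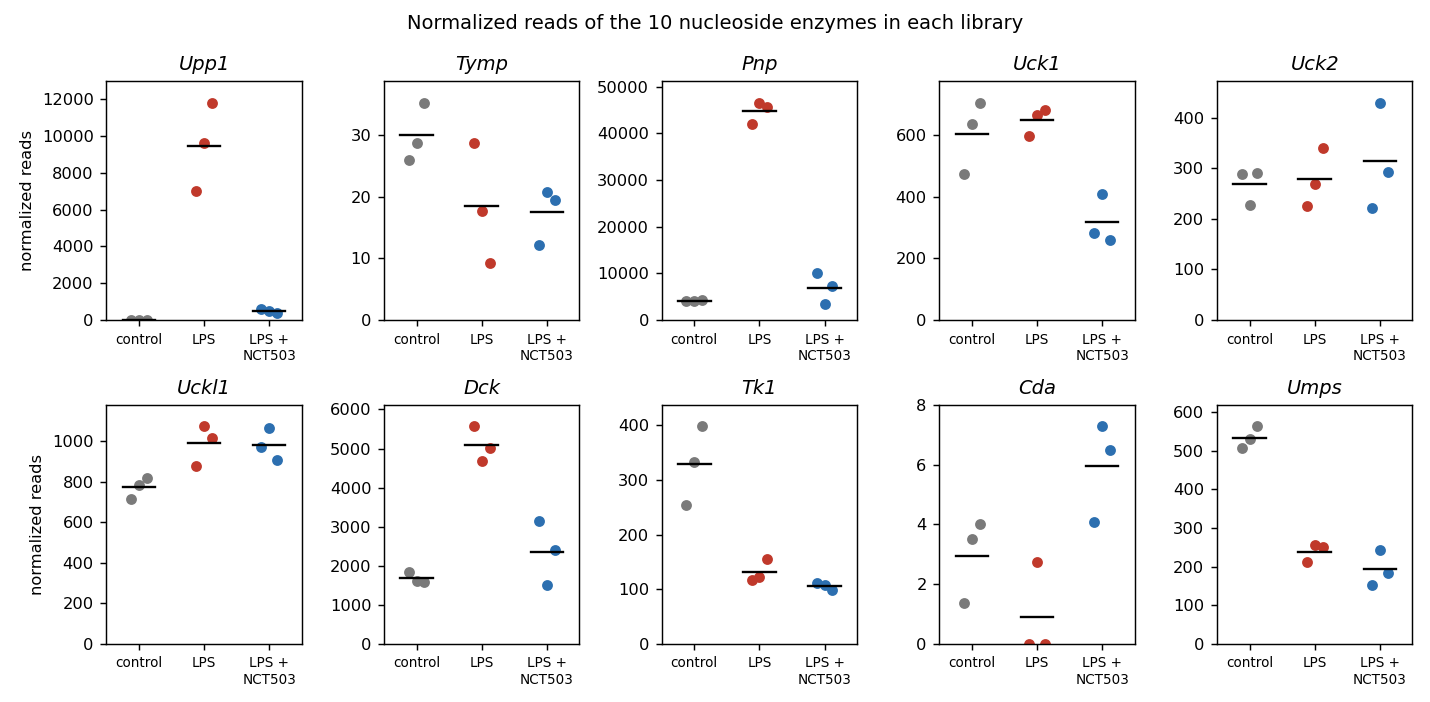
Normalized reads (vertical axes, each starting at 0) of the 10 genes in the 3 control, 3 LPS and 3 LPS with NCT503 libraries, 1 point per library and a bar for each group mean. Upp1, Pnp and Dck stand highest in the LPS libraries, Umps and Tk1 in the control libraries, while Uck1 is lowest with NCT503.

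Of the 9 other genes, 2 rose (Pnp and Dck) and 2 fell (Umps and Tk1) with LPS, and 5 did not pass the test. Over all 19608 genes tested 42.4% were called, 20.8% higher and 21.6% lower, so 4 of 9 is near the background share. With NCT503 added, 3 of the 9 fell (Pnp, Dck and Uck1) and Cda passed the test as higher. Among 20016 genes 31.8% were called in that comparison, 16.4% higher and 15.5% lower. Between LPS with NCT503 and control, 3 of the 9 fell (Uck1, Umps and Tk1) and none was called higher, where 40.4% of 19930 genes were called, 20.7% higher and 19.7% lower. Without NCT503 library 2, 5 of the 9 were called in this last comparison, Pnp and Dck being the added ones.

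The median difference of the 9 genes was 0.04 with LPS, -0.31 with NCT503 against LPS and 0.18 with NCT503 against control, and the medians over all genes tested were -0.03, 0.08 and 0.05. The scaling bears on these counts and on the sizes of the differences. When reads were scaled to library totals (CPM), the median of all genes shifted by -0.63 for LPS against control, and the called genes became 2090 higher and 8426 lower in place of 4076 and 4231. For NCT503 against LPS the split under CPM was 4337 and 2137 in place of 3276 and 3097, and for NCT503 against control 2451 and 6572 in place of 4134 and 3927. All 9 genes were called for LPS against control under CPM, 2 higher and 7 lower. For LPS against control, 31 of the genes named here were followed under each scaling. CPM scaling moved all of them but Cda and Nt5c1a by -0.63 to -0.70 on the log2 scale, a factor of over 1.5. The LPS values given for Slc29a1, Prps1, Pgm1 and Cdt1 were not among these 31.

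**Figure D2:**
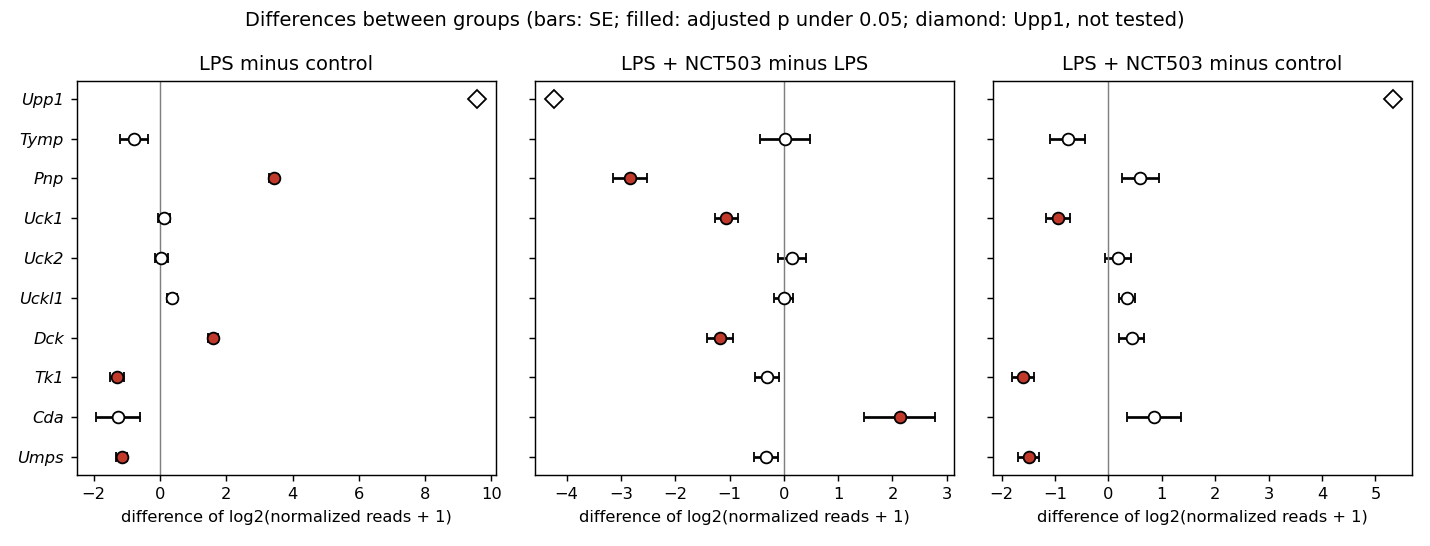
Difference of log2(normalized reads + 1) for the 10 genes in the 3 comparisons, with standard errors for the 9 tested genes; filled points have a limma adjusted p under 0.05, and Upp1 is drawn apart because it was chosen on these values. Upp1 and Pnp have the largest positive values with LPS and the largest negative values with NCT503.

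Among the phosphorylases, Pnp followed the same order of groups as Upp1. Pnp (chr14:50944302-50965237, plus strand) encodes purine nucleoside phosphorylase, which splits inosine and guanosine into a base and ribose 1-phosphate, the purine counterpart of the Upp1 reaction. It had 4116, 4161 and 4194 normalized reads in control, 42092, 46570 and 45694 with LPS, and 10134, 3381 and 7297 with NCT503. The LPS libraries lay far above all others, and the NCT503 libraries overlapped the control libraries, with library 2 below them. Pnp rose 10.8-fold with LPS (log2 3.43 ± 0.14 SE, limma adjusted p = 7.0e-09) and NCT503 left 15.5% of the LPS mean (log2 -2.83 ± 0.31 SE, limma adjusted p = 3.6e-05). The LPS value was smaller under CPM scaling (2.73) and quantile normalization (2.43). Against control, the NCT503 value was 0.60 ± 0.34 on the log2 scale (limma adjusted p = 0.204), and without NCT503 library 2 it was 1.05 (limma adjusted p = 0.000272).

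Pnp2, a neighbouring gene of the same enzyme family, lies inside the span of Pnp (chr14:50955992-50964749), and reads may be split between the 2 genes by a rule that the labels do not state. Pnp2 had 1.78% to 2.29% as many reads as Pnp in control, 4.04% to 4.46% with LPS, and 1.77%, 0.0616% and 1.56% with NCT503. Pnp2 itself rose with LPS (log2 4.46, limma adjusted p = 3.6e-09). Its NCT503 libraries had 176, 2 and 105 reads, all far below the 1409 to 1524 reads of the LPS libraries. The NCT503 mean was 5.23% of the LPS mean. With library 2 far below the other 2, the log2 difference was -5.55 with a standard error of 1.78 and did not pass the test (limma adjusted p = 0.0837).

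Tymp (chr15:89371931-89377039, minus strand), thymidine phosphorylase, splits thymidine in the same way. It was scarce in all 9 libraries: 26.0, 28.7 and 35.3 normalized reads in control, 28.8, 17.7 and 9.2 with LPS, and 12.2, 20.8 and 19.5 with NCT503. The control and LPS libraries overlapped, and so did the LPS and NCT503 libraries. Its differences were -0.78 with LPS (limma adjusted p = 0.15), 0.02 with NCT503 against LPS (0.978) and -0.77 with NCT503 against control (0.0941), and under CPM scaling the first and last of these passed the test, the first also without LPS library 1 (-1.15, limma adjusted p = 0.0356). In the annotation, 42.0% of its exon bases are also exon of Sco2 on the same strand and 26.3% exon of Ncaph2 on the other strand. The labels state neither the counting rule nor its strand setting, so the level of Tymp is uncertain.

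The kinases of uridine and cytidine did not share the pattern of Upp1. Uck1 (chr2:32255002-32260159, minus strand) and Uck2 (chr1:167222883-167285320, minus strand) are uridine-cytidine kinases, which turn uridine into uridine monophosphate. Uckl1 (chr2:181569149-181584892, minus strand) is a relative of both. Uck1 had 473.5, 638.5 and 705.9 normalized reads in control, 596.7, 666.9 and 681.9 with LPS, and 282.4, 410.0 and 258.7 with NCT503. Only the NCT503 libraries of Uck1 stood apart, below all 6 others. Uck1 fell with NCT503 against LPS (log2 -1.06 ± 0.21 SE, limma adjusted p = 0.00231) and against control (log2 -0.94 ± 0.22 SE, limma adjusted p = 0.00642), its NCT503 mean being 48.9% of the LPS mean.

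LPS alone gave no call for these 3 kinases at the main scaling, and their sign turned negative under CPM scaling: Uck1 was 0.12 (limma adjusted p = 0.629) and -0.58 under CPM, Uck2 0.04 (0.901) and -0.66, and Uckl1 0.35 (0.0737) and -0.34. Uck2 ranged from 222 to 430 normalized reads over the 9 libraries, and both extremes were NCT503 libraries. Its differences with NCT503 were 0.15 against LPS (limma adjusted p = 0.705) and 0.18 against control (0.583). Uckl1 had 714 to 816 normalized reads in control, 877 to 1073 with LPS and 908 to 1068 with NCT503. The Uckl1 control libraries lay below the other 6, its LPS value passed the test without LPS library 1 (0.44, limma adjusted p = 0.0267), and its value for NCT503 against LPS was -0.01 (limma adjusted p = 0.979).

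Dck and Tk1, the kinases of deoxynucleosides, moved in opposite directions with LPS. Dck (chr5:88764996-88783281, plus strand) encodes deoxycytidine kinase, which also phosphorylates deoxyadenosine and deoxyguanosine. It had 1838.5, 1615.8 and 1572.9 normalized reads in control, 5565.2, 4673.5 and 5017.1 with LPS, and 3154.8, 1516.0 and 2402.7 with NCT503. The LPS libraries were above all others, and NCT503 library 2 was the lowest of the 9. Dck rose 3.03-fold with LPS (log2 1.60 ± 0.14 SE, limma adjusted p = 3.8e-06) and fell with NCT503 to 46.4% of the LPS mean (log2 -1.17 ± 0.24 SE, limma adjusted p = 0.00287). The LPS value was 0.90 under CPM scaling and 0.95 under quantile normalization. Against control, its NCT503 value was 0.43 (limma adjusted p = 0.175), -0.02 under CPM scaling, and 0.72 without NCT503 library 2 (limma adjusted p = 0.0027).

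Tk1 (chr11:117815526-117826092, minus strand) encodes the cytosolic thymidine kinase, which is made mainly in dividing cells as they copy their DNA. It had 254.1, 333.9 and 398.2 normalized reads in control, 117.5, 122.7 and 154.7 with LPS, and 111.1, 107.2 and 98.5 with NCT503. All control libraries stood above the other 6. Tk1 fell with LPS (log2 -1.30 ± 0.21 SE, limma adjusted p = 0.0004) and was also lower with NCT503 than in control (log2 -1.61 ± 0.21 SE, limma adjusted p = 0.000146). Its difference between NCT503 and LPS was -0.31 (limma adjusted p = 0.331).

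The fall of Tk1 with LPS stood beside that of other genes of DNA replication. Of 15 S phase genes, such as the helicase subunits of the Mcm family, 13 fell with LPS, against 21.6% of all genes, and 1 rose (Cdt1, a replication licensing factor, 0.73), with a median of -1.25 against -0.03 over all genes tested. None of the 15 was called higher under CPM scaling, under quantile normalization or without LPS library 3. Mcm3 (-1.40) and Mcm4 (-1.60) had the smallest p-values. Fen1 and Gins2, both among the 13, share 78.8% and 67.3% of their exon bases with a gene on the other strand. Counting by strand is not stated in the labels, so the levels of Fen1 and Gins2 are uncertain. With NCT503 against LPS, 3 of the 15 were called, below the 31.8% of all genes: Mcm2 rose by 1.46, while Gins1 (-1.17) and Mcm6 (-0.73) fell. Without LPS library 3, or without NCT503 library 3, Mcm2 alone was called, and the call for Gins1 was also lost under CPM scaling. With NCT503 against control 13 of the 15 fell, against 19.7% of all genes, among them Mcm6 (-1.98) and Cdc6 (-1.95), and none rose.

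Umps (chr16:33954782-33967038, minus strand) encodes uridine monophosphate synthase, the last enzyme of de novo synthesis of that nucleotide. It had 506.9, 530.7 and 563.3 normalized reads in control, 210.8, 255.0 and 250.5 with LPS, and 151.9, 243.5 and 182.9 with NCT503. The control libraries stood above the other 6, and the LPS and NCT503 libraries overlapped. Umps fell with LPS to a level 2.23-fold below control (log2 -1.16 ± 0.16 SE, limma adjusted p = 0.000108) and was lower with NCT503 than in control (log2 -1.49 ± 0.20 SE, limma adjusted p = 0.000179). Its value between NCT503 and LPS was -0.33 (limma adjusted p = 0.3).

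Cda (chr4:138338424-138367992, minus strand) encodes cytidine deaminase, which turns cytidine into uridine and so feeds the Upp1 reaction. It had almost no reads: 12 in the control libraries together, 2 with LPS, both in LPS library 2, and 17 with NCT503. Cda passed the test as higher with NCT503 than with LPS (log2 2.13 ± 0.66 SE, limma adjusted p = 0.0265). From the pooled reads the ratio was 7.01, with a 95% counting interval of 1.66 to 62.6 that covers counting error only. The call did not hold with DESeq2 (adjusted p = 0.143), with quantile normalization, or without LPS library 1, LPS library 3, NCT503 library 2 or NCT503 library 3, and the authors' deposited table gives an adjusted p of 0.15. Its difference with LPS was -1.28 (limma adjusted p = 0.149), and -1.91 without LPS library 2 (limma adjusted p = 0.0355).

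Per kilobase of exon, the order of the 10 genes shifted around Upp1. In control, Pnp came first with 1348 normalized reads per kilobase, then Dck with 443, Uck1 with 220, Uckl1 with 167 and Umps with 153. Tk1 (63.2), Uck2 (49.2), Tymp (14.7), Upp1 (5.89) and Cda (2.86) followed. The control libraries of Uck1 and Uckl1, of Uckl1 and Umps, and of Tk1 and Uck2 overlapped, while those of Tymp, Upp1 and Cda did not.

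With LPS, Upp1 moved from the 9th to the 2nd place with 4827 normalized reads per kilobase, after Pnp with 14517 and ahead of Dck with 1345. Uck1 (236), Uckl1 (214), Umps (68.5), Uck2 (51.0), Tk1 (25.3), Tymp (9.12) and Cda (0.878) came after them. Neighbours that overlapped there were Uck1 with Uckl1 and Umps with Uck2. With NCT503, Upp1 was 3rd at 252 normalized reads per kilobase and overlapped Uckl1 at 212, after Pnp at 2249 and Dck at 624. Uck1 (115), Uck2 (57.7), Umps (55.3), Tk1 (20.3), Tymp (8.59) and Cda (5.75) were lower, with overlap between Uck2 and Umps and between Tymp and Cda. Exon lengths are those of the deposited tables, and the start and end of 9 of the 10 genes were the same in GENCODE M21. There the identifier that the tables call Pnp names another model, so its level per length is uncertain.

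**Figure D3:**
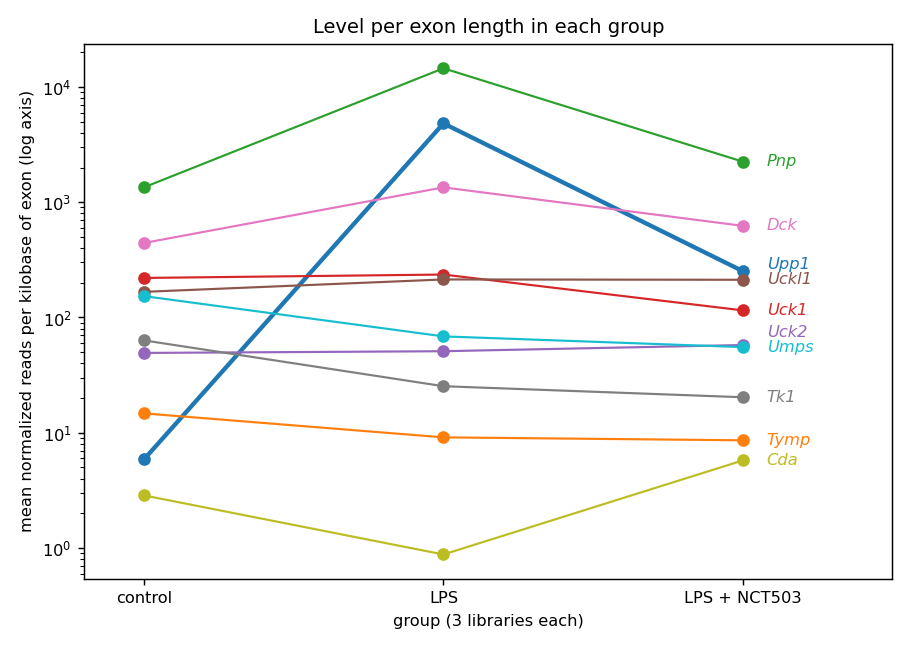
Normalized reads per kilobase of exon (log axis) of the 10 genes in each group, as the mean of 3 libraries, with lines joining the means of a gene. Upp1 goes from 5.89 in control to 4827 with LPS and 252 with NCT503, a wider span on the log axis than that of any of the other 9 genes.

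Genes that carry nucleosides into the cell and supply or consume the substrates of these 10 enzymes were read from a list of 50 neighbours, of which 46 were in both tables. With LPS 9 of the 44 tested rose, near the 20.8% of all genes, and 21 fell, against 21.6%, with a median of -0.49 against -0.03. With NCT503 against LPS 6 of 46 rose, against 16.4% of all genes, and 12 fell, against 15.5% (median -0.12 against 0.08), and without NCT503 library 3 these became 3 and 8. With NCT503 against control 8 of 46 rose, against 20.7%, and 19 fell, against 19.7% (median -0.64 against 0.05).

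Of the nucleoside transporters, Slc28a2, which couples uptake of uridine and purine nucleosides to sodium, rose from 506 ± 29.4 (SD, n = 3) normalized reads to 18394 with LPS (log2 5.17, limma adjusted p = 7.8e-10). With NCT503 it was at 1342, a fall of -3.89 on the log2 scale (limma adjusted p = 3.4e-06), and it remained 1.28 above control (limma adjusted p = 0.0116), a call lost under CPM scaling. Its NCT503 libraries had 1876, 675 and 1475 normalized reads, all above the control libraries. The equilibrative transporters Slc29a2 (-1.21) and Slc29a3 (-1.19, or -1.87 under quantile normalization) fell with LPS, and so did Slc29a1 (-0.75), which rose again with NCT503 (0.80). Among 4 transporters tested with LPS, 1 rose and 3 fell, against 20.8% and 21.6% of all genes.

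Of 8 nucleotidases and related hydrolases, 3 rose and 1 fell with LPS, against 20.8% and 21.6% of all genes. Nt5c3, a pyrimidine 5′-nucleotidase, rose by 2.56, Samhd1, which breaks down deoxynucleoside triphosphates, by 1.70, or 0.66 under quantile normalization. Nt5c1a also rose, from 1 read in the control libraries together to 65 with LPS, a ratio of 114 with a 95% counting interval of 19.7 to 4565. None of the 8 rose with NCT503 against LPS and 4 fell, where 16.4% of all genes rose and 15.5% fell. Samhd1 fell by 2.30, Nt5c by 1.17 and Nt5c1a by 1.49. The call for Nt5c1a was lost without LPS library 1, LPS library 3 or NCT503 library 3. Compared with control, Nt5c3 (1.91) was higher with NCT503, as was Nt5c1a with 26 reads against 1 (limma adjusted p = 0.001), and Nt5c (-1.03) was lower.

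Further steps of uridine and uracil breakdown had few reads. Upp2, the second uridine phosphorylase, had a mean of 48.9 normalized reads in control and 27.2 with LPS, and its call as lower (log2 -0.81, limma adjusted p = 0.0433) was lost when any 1 library was left out. Dpys, the dihydropyrimidinase of uracil breakdown, rose with LPS (5.78 to 18.4 normalized reads, log2 1.51) and fell with NCT503 (4.54 normalized reads, log2 -1.83), the first call being lost under CPM scaling. Upb1, the last enzyme of that route, was higher with NCT503 than in control (limma adjusted p = 0.0179), from 1 read to 11 in the 3 libraries together (ratio 15.9, 95% counting interval 2.31 to 684), and this call was lost with DESeq2 and without control library 2, control library 3 or NCT503 library 1.

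Of 7 genes that use ribose phosphates, 1 rose and 4 fell with LPS, against 20.8% and 21.6% of all genes. With NCT503 against LPS 4 rose and 1 fell, against 16.4% and 15.5% of all genes. Prps1 and Prps2 make phosphoribosyl pyrophosphate, the sugar donor of nucleotide synthesis. Prps1 fell with LPS (-0.83) and rose with NCT503 (1.93, limma adjusted p = 6.6e-05), to 295 ± 60.2 normalized reads against 136 ± 9.57 in control. Prps2 fell with LPS (-2.64) and rose with NCT503 (1.33), but stayed below control (-1.31), and the NCT503 call was lost without NCT503 library 3. The phosphoglucomutase family, whose members can interconvert sugar phosphates, was split: the gene called Pgm2 in the tables rose with LPS (1.10) and again with NCT503 (0.62), Pgm2l1 fell with LPS (-1.50), and Pgm1 fell with LPS (-0.49) and rose with NCT503 (0.71). The LPS call for Pgm2 was lost under CPM scaling, and the NCT503 call for Pgm1 without LPS library 2, LPS library 3, NCT503 library 1 or NCT503 library 3. The names Pgm1 and Pgm2 are exchanged in GENCODE M21.

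In de novo synthesis, Cad, which holds the first enzymes of the route, fell with LPS (-1.10, limma adjusted p = 0.000363), as did Dhodh, the dehydrogenase of the route (-1.14, limma adjusted p = 0.000406). Both were also lower with NCT503 than in control, at -0.90 for Cad and -1.49 for Dhodh. Ctps, a CTP synthase, rose with NCT503 against LPS (1.24, limma adjusted p = 0.0123) and against control (1.05), the latter call being lost under CPM scaling. The call for Cad between NCT503 and control was lost with edgeR and without control library 2, control library 3, NCT503 library 1 or NCT503 library 3. The 3 listed genes of de novo uridine monophosphate synthesis, Cad, Dhodh and Umps, all fell with LPS, where 21.6% of all genes fell. In the fixed list of 4 genes of de novo pyrimidine and CTP synthesis, which leaves out Umps, 2 fell and none rose.

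Of 11 other genes of pyrimidine salvage and deoxynucleotide supply, 1 rose and 7 fell with LPS, against 20.8% and 21.6% of all genes. The one that rose was Cmpk2, a mitochondrial nucleotide kinase known as an interferon-induced gene, from 1168 to 57672 normalized reads (log2 5.62, limma adjusted p = 5.5e-10), or 4.87 under quantile normalization. It fell by 1.69 with NCT503 and stayed 3.94 above control. The subunits of ribonucleotide reductase Rrm1 (-1.61) and Rrm2 (-1.44) fell with LPS. None of the 11 rose with NCT503 against LPS and 4 fell, among them Rrm2 (-1.40) and Dtymk, thymidylate kinase (-0.97). Over all genes 16.4% rose and 15.5% fell in that comparison.

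Of 8 genes of purine nucleoside salvage, 2 rose with LPS (Pnp2 and Gda, the guanine deaminase, 1.28) and 3 fell, among them Dguok, the mitochondrial deoxyguanosine kinase (-0.73). These counts are near the shares over all genes, 20.8% higher and 21.6% lower. Gda fell with NCT503 against LPS (-1.12, limma adjusted p = 0.00701), and its LPS call was lost under CPM scaling. No other of the 8 passed the test in that comparison, although Pnp2 had the lower NCT503 level given above. Dguok (-1.02), Ada, adenosine deaminase (-1.39), and Hprt, a purine base salvage enzyme (-0.64), were lower with NCT503 than in control.

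**Figure D4:**
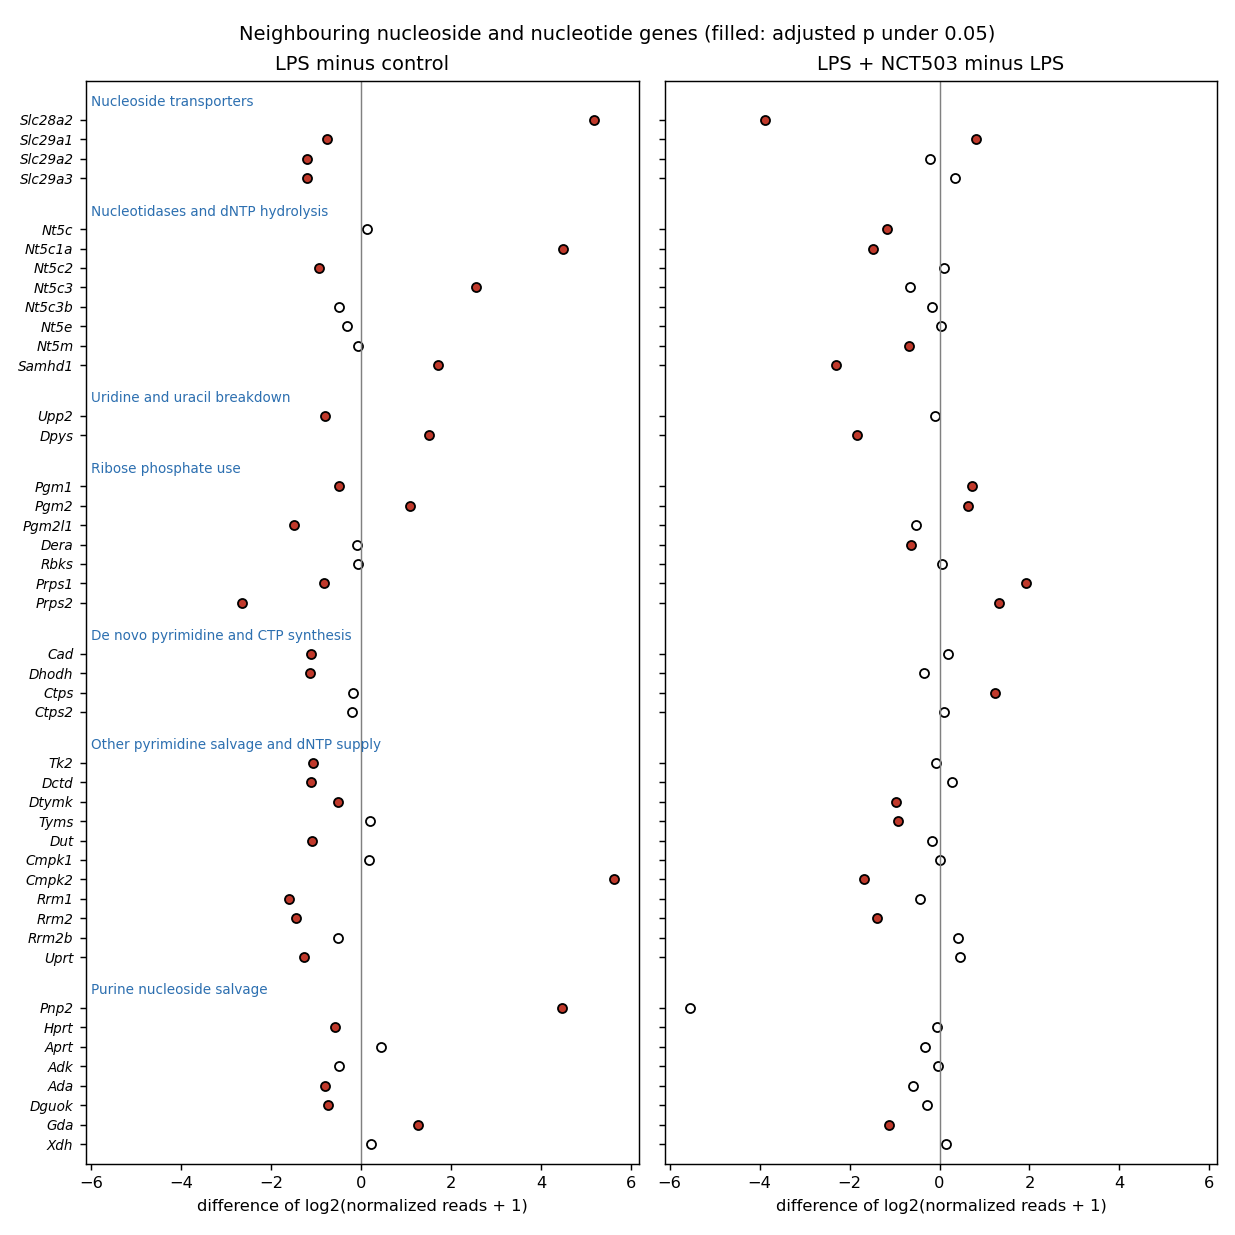
Differences of log2(normalized reads + 1) for the 44 neighbour genes tested with LPS, by role, for LPS minus control (left) and LPS with NCT503 minus LPS (right); filled points have a limma adjusted p under 0.05. Slc28a2, Cmpk2, Nt5c1a and Pnp2 lie farthest to the right with LPS, and Prps1 and Prps2 lie right of 0 with NCT503.

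The genes whose profiles over the 9 libraries lay nearest to that of Upp1, by Euclidean distance between centred log2 values among 18705 genes, were Socs3 (distance 2.04), Gpr84 (2.20), Cxcl11 (2.27), Ifng (2.30) and Cxcl10 (2.74). Socs3 encodes an inhibitor of cytokine signalling, Gpr84 a receptor for fatty acids, Cxcl10 and Cxcl11 chemokines, and Ifng interferon gamma. Cxcl11 is annotated as a polymorphic pseudogene in the deposited tables. All 5 were high with LPS and lower with NCT503 without returning to the control level, a pattern that comes with choosing them for nearness to Upp1. Their differences with NCT503 against LPS ran from -2.56 for Cxcl10 to -4.64 for Cxcl11, with -2.66 for Socs3, -3.08 for Ifng and -4.22 for Gpr84.

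Of the other 9 enzymes, Pnp was the nearest to Upp1, at rank 406 (distance 8.01), followed by Dck at rank 1586 (distance 9.92), and the remaining 7 ranked between 5665 and 16238. Pearson's r with Upp1 over the 9 libraries was 0.882 for Pnp and 0.884 for Dck, against 0.986 for Socs3. These values describe 9 libraries that fall into 3 treatment groups and share their size factors. Cxcl11 and Gpr84 share 41.7% and 39.5% of their exon bases with a gene on the other strand in the annotation, and counting by strand is not stated in the labels. Ifng shares 25.9% of its exon bases with another gene on the same strand.

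**Figure D5:**
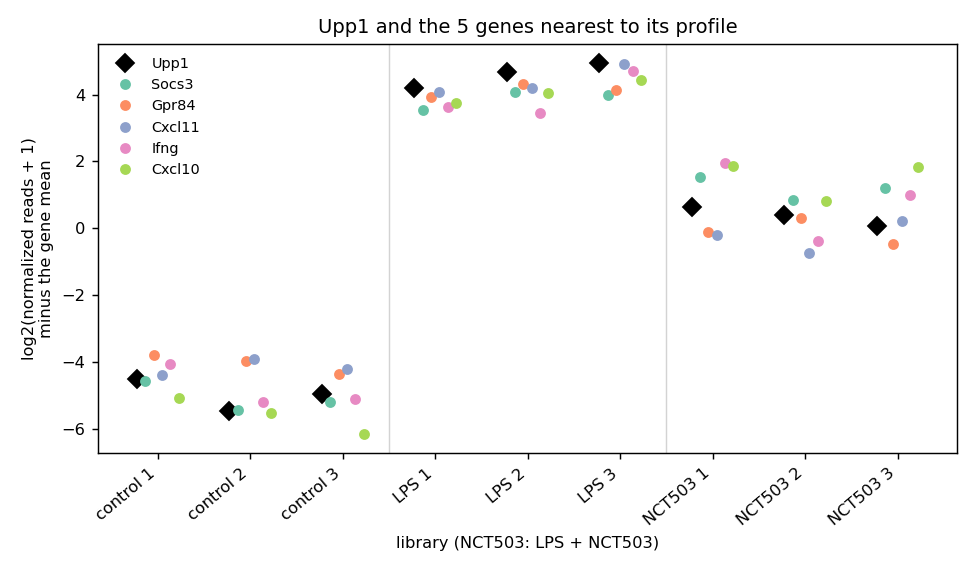
Log2(normalized reads + 1) minus the mean of the gene over the 9 libraries (vertical axis) for Upp1 and the 5 nearest genes in each library (horizontal axis). All 6 genes are lowest in control, highest with LPS and in between with NCT503, an order that comes with choosing the nearest genes.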

How the data were processed

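RNA-seq reads of 9 libraries were aligned with TopHat2 to mm10, per the submitters' processing notes. Which counter, annotation, strand setting and test were used is not given in the sources used here. From these reads the authors deposited 2 tables (23001 and 22620 genes) whose signal values are reads divided by a size factor: after that division was undone, 100% of values in all 12 library columns were whole within 0.001, and the LPS reads were equal in both tables. The authors' log2 fold changes and adjusted p-values, also in the deposited tables, are quoted where named. Because the values were neither raw counts nor FPKM, the test planned for normalized reads was used.

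The recovered reads of the 21434 shared genes were put on 1 scale with median-of-ratios size factors. Genes with a mean of at least 1 in 1 group were tested with limma 3.58.1 (trend, robust; R 4.3.3) on log2(normalized reads + 1), each comparison on its own 6 libraries, with Benjamini-Hochberg adjustment over all genes tested and a call under 0.05. A fold change on this scale understates the change of low genes. Alternatives were TMM, CPM and quantile scaling, the values as deposited, a pseudocount of 0.1, no filter or a minimum of 10, edgeR 4.0.16, DESeq2 1.42.0, all 9 libraries in 1 fit, the replicate block, and leaving out each library. The scripts were first tested on simulated data.

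All 10 members are named; of each role of neighbour genes up to 3 called genes with the smallest p per comparison, of the S phase genes up to 2, and the 5 genes nearest to Upp1, leaving out provisional names. A gene named for 1 comparison is described in the others, and Cdt1 was named after its values were seen. The members and lists were chosen with earlier results of these data known.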

Additional observations from a re-analysis of the deposited data

How the results depend on the processing

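Of 250 alternatives to the 15 counts and Upp1 differences, 242 stayed within the set limits and 8 did not. Under CPM scaling 9 of the other 9 members were called for LPS against control in place of 4, and the Upp1 difference was 8.91 in place of 9.58 there and 4.91 in place of 5.34 for NCT503 against control. With a replicate block, S phase genes called for NCT503 against LPS were 5 in place of 3, and Uckl1 passed the test with LPS (0.35, limma adjusted p = 0.0296); the block moved none of the other counts by over 1.5 times. The replicate numbers are only numbers: the deviations of libraries with the same number correlated at -0.23 to 0.37 (9 pairs), those with other numbers at -0.43 to 0.40 (18 pairs), and 1 of 9 libraries correlated best with its own number in both other groups. Leaving out 1 library, the S phase calls for NCT503 against LPS ranged from 1 to 4, the neighbour calls in that comparison from 11 to 20, and the member calls for NCT503 against control from 3 to 5. Among 85 named results, 1353 of 1405 alternatives kept direction and call, 40 lost the call, 9 gained it and 3 reversed, all under CPM scaling for LPS against control: Uck1 (-0.58), Uck2 (-0.66) and Uckl1 (-0.34). The cause was not tested. Cda, with 2 to 17 reads in a group, is limited by depth.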
